A study of Homo sapiens with 2 samples.

Results

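The nuclear factor I (NFI) family consists of the 4 genes NFIA, NFIB, NFIC and NFIX. Their interactions were taken from a list of TCF3::HLF-HiChIP interactions. An interaction was assigned to a gene when either of its 5-kb bins overlapped the gene body, as annotated in GENCODE release 44 on hg38, or the 10 kb on each side of it. By this rule 137 of the 49245 listed interactions belonged to the family. NFIA had 102 interactions, NFIB had 19, NFIX had 14 and NFIC had 2.

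The cells were HAL-01, a B cell leukemia line with the t(17;19) translocation that produces the fusion transcription factor TCF3::HLF. They carried Cas9GFP, and their wild-type TCF3 had been knocked out, so that an antibody against TCF3 (E2A) precipitated the fusion protein. The study held this single condition, TCF3-KO HAL-01, in 2 replicates that had been merged before interaction calling, and the knockout cells came from expanded colonies. The list has therefore no replicate error and no control condition, and neither the cell type nor the knockout could be checked from it. HiChIP joins chromatin fragments that lie close together in the nucleus and enriches those bound by the precipitated protein. The contact count of an interaction is the number of read pairs that join its bins. The contact counts of all listed interactions summed to 1268490, of which 3565 belonged to the NFI genes. Intervals given after a contact count are exact Poisson 95% intervals. They cover counting error only. Duplicate read pairs had not been removed, so the true error is larger.

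NFI proteins bind the DNA palindrome formed by TTGGC and GCCAA as dimers, and they act as activators or repressors in development. In the blood system NFIA is known for its part in the choice between erythroid and granulocytic fates, and NFIX for the maintenance of hematopoietic stem and progenitor cells. NFIB is best known from lung and brain development and NFIC from tooth root formation. TCF3::HLF carries the DNA-binding domain of HLF, a basic leucine zipper protein that recognizes palindromes such as TTACGTAA and the closely related TTATGTAA. An exact match to either of these, on either strand, is called an HLF motif here.

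The HLF motifs below come from NFIA and NFIB bins chosen because they hold a motif and are busy or recurrent partners, or hold an NFIB start. Other busy bins had none, among them chr1:61135001-61140000 with 10 NFIA interactions. Each motif is shown with 26 bases on either side, 5′ to 3′ on the strand that reads TTATGTAA. Capitals mark the motif. All windows were read from hg38 and overlapped no annotated exon. The first pair lies in the busiest NFIA bin, chr1:61250001-61255000, in intron 2 of the canonical NFIA transcript. The first of the pair, at chr1:61251607-61251666 on the minus strand, also lies in the body of the antisense gene NFIA-AS1. The second is at chr1:61253536-61253595 on the plus strand.
NFIA busiest bin, site 1: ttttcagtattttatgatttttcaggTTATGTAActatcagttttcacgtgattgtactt
NFIA busiest bin, site 2: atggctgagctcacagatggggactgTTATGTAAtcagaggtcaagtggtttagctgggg

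A further NFIA bin with 10 interactions, chr1:61230001-61235000, also in intron 2, held 3 motifs. The site shown is at chr1:61232756-61232815 on the plus strand.
NFIA bin with 3 motifs: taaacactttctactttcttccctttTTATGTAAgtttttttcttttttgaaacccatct

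For NFIB, the bin outside the gene that recurred most, chr9:14415001-14420000, held 1 motif, with its window at chr9:14418350-14418409 on the minus strand, in the body of the lncRNA gene ENSG00000287708. The busiest bin inside NFIB, chr9:14370001-14375000, held 1 motif with its window at chr9:14371619-14371678 on the minus strand. The bin chr9:14320001-14325000, which held NFIB transcript starts, contained 2 motifs, the first with its window at chr9:14323540-14323599 on the plus strand.
NFIB upstream bin: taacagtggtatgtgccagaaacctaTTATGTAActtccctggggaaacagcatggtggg
NFIB busiest bin inside the gene: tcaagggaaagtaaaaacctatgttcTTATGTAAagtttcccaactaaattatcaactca
NFIB start bin: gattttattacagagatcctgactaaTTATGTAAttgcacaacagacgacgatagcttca

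None of the 4 bins of the NFIC interactions and none of the 7 bins at NFIX held an HLF motif, so no sequence is shown for these genes.

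All 4 NFI genes had at least 1 listed interaction, as had 64.5% of the 19970 protein-coding genes on the autosomes and chromosome X. The numbers differed widely between the members. NFIA ranked 6 among all protein-coding genes by number of interactions, NFIB 656, NFIX 1095 and NFIC 6722. The genes differ in length, from 597.53 kb for NFIA to 103.322 kb for NFIX, and a longer gene takes in more bins. Per 100 kb of gene and flanks the order was NFIA with 16.5, NFIX with 11.4, NFIB with 5.64 and NFIC with 1.14 interactions. On that scale NFIA ranked 1158 among protein-coding genes and NFIX 2074.

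Genes were called of like length where the shorter had at least 0.8 times the length of the longer. Genes without a listed interaction numbered 9 of 202 in the length class of NFIA and 43 of 539 in that of NFIB. They numbered 162 of 1272 in the class of NFIC and 276 of 1699 in that of NFIX. At least 1 interaction was therefore usual at these lengths. Among protein-coding genes of like length NFIA ranked 2 of 202, where the median was 8.5 interactions. LPP, a gene of 737.388 kb, stood directly above it with 106 interactions and CDK14 directly below with 90. NFIB ranked 118 of 539 genes of like length, between TSPAN8 with 20 interactions and ADAM22 with 18, and 10 other genes had as many as NFIB. NFIX ranked 167 of 1699, where the median was 3 interactions, between ZNRF2 with 15 and ARHGEF37 with 13. NFIC ranked 840 of 1272, below a median of 5 interactions, and 133 other genes also had 2. NFIA therefore stood near the top of its length class, NFIB and NFIX in the upper part of theirs and NFIC below the middle.

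**Figure D1:**
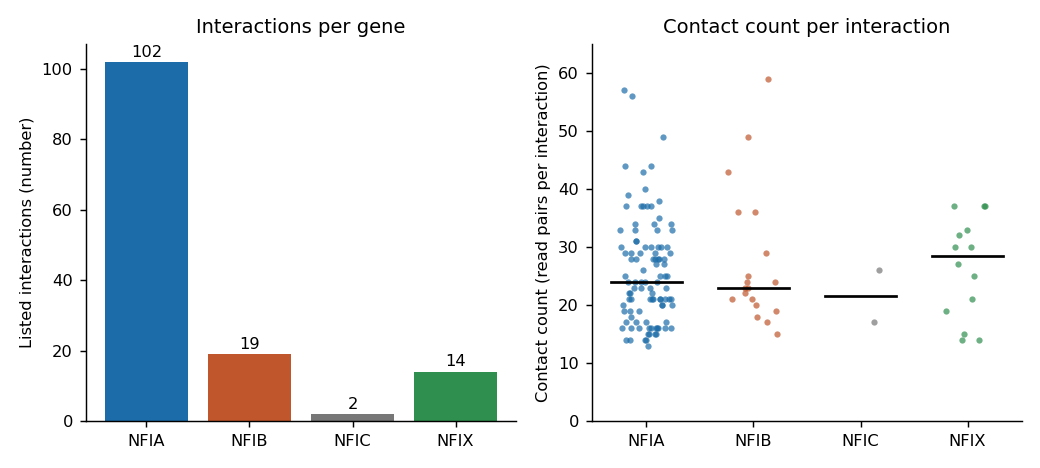
Number of listed interactions of each NFI gene (left, bars) and contact count of each interaction in read pairs (right, points, with the median as a line). NFIA had 102 interactions and NFIC 2, while the contact counts of the 4 genes covered overlapping ranges between 13 and 59.

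The contact counts of the genes overlapped. The median contact count was 24 for NFIA (range, 13 to 57; 95% order-statistic interval of the median, 21 to 28). It was 23 for NFIB (range, 15 to 59; interval, 20 to 36) and 28.5 for NFIX (range, 14 to 37; interval, 15 to 37). The NFIC interactions had contact counts of 26 and 17. The intervals of NFIA, NFIB and NFIX overlapped, and the median over the whole list was also 24. Interactions of a gene share bins, while the intervals of medians here and below treat them as independent. These intervals are therefore too narrow and only describe the list.

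Contact counts fall with distance, so each was also divided by the median of all listed interactions at exactly the same distance. The median of this ratio was 1.04 for NFIA (interval, 0.955 to 1.12), 0.958 for NFIB (interval, 0.84 to 1.44) and 1.19 for NFIX (interval, 0.76 to 1.37). All of these intervals included 1, and they too treat interactions that share bins as independent. A contact count of at least 1.5 times the median at the same distance was found in 14 of the 137 NFI interactions, or 10.2%, against 12.6% of all listed interactions. NFIA had 10 of the 14 and NFIB 4. The share in the family was near that of the list. Every listed pair had passed a q-value cut that rests on its contact count. Pairs with low counts for their distance and bins are therefore absent, which narrows the counts of every gene. For this reason the spread of contact counts cannot be weighed against the spread in number of interactions.

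**Figure D2:**
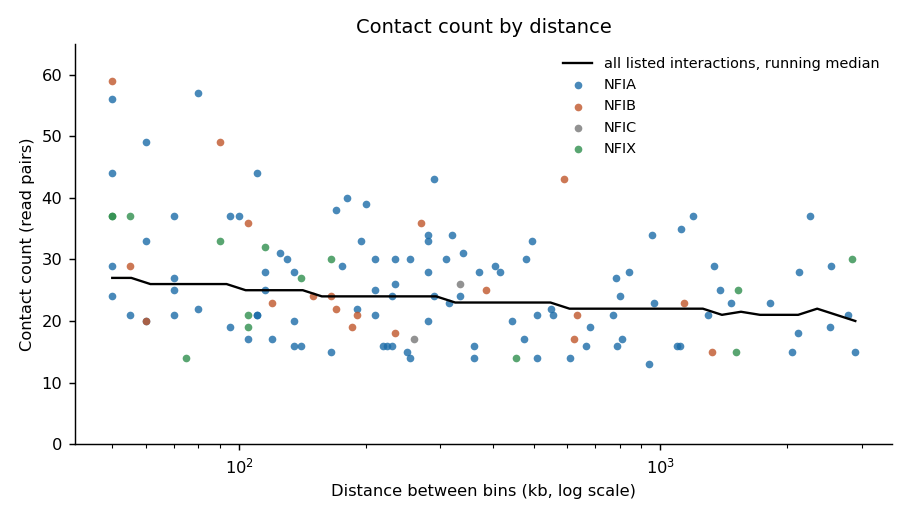
Contact count of every NFI interaction in read pairs against the distance between its bins in kb (log scale), with the running median of all listed interactions as a line. The NFI points scatter on both sides of the line, and the largest counts, 59 for NFIB and 57 for NFIA, lie at 50 and 80 kb.

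The median distance between bins was 280 kb for NFIA (interval, 220 to 360), 185 kb for NFIB (interval, 105 to 590) and 110 kb for NFIX (interval, 55 to 1510), against 255 kb over the whole list. The NFIC interactions spanned 335 and 260 kb. Distances over 1 Mb were seen in 17 of the 102 NFIA interactions, 2 of the 19 of NFIB and 3 of the 14 of NFIX, in all 16.1% of the family's interactions compared with 13.7% of the list.

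About as many NFIA interactions stayed within the gene as left it. Both bins lay within the gene and its flanks in 52 of its 102 interactions, or 51.0% (Wilson 95% interval, 41.4 to 60.5). Of the other 50, the partner lay upstream in 22 and downstream in 28. For NFIX, 6 of 14 interactions had both bins in the window, and for NFIB only 2 of 19, so that 17 NFIB interactions led out of the window. Of these, 9 ended in 1 bin 16.0 kb upstream of the gene body, just beyond the 10-kb flank. The room for pairs at least 50 kb apart depends on gene length, and the share is not comparable between genes of different length. The part of length in these shares was not tested. Neither NFIC interaction had both bins at NFIC.

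A single bin carried 30 of the 102 NFIA interactions, or 29.4%. This bin, chr1:61250001-61255000, lies in intron 2 of the canonical NFIA transcript of 11 exons, with its center at 170 kb from the canonical start at chr1:61082561 in the direction of transcription, and holds the start of NFIA-AS1. It ranked 28 among the 53535 anchor bins of the list by number of interactions. Most anchor bins, 78.0%, had 1 interaction, and 2.10% had 10 or more. NFIA had 3 such bins, the others being chr1:61135001-61140000 and chr1:61230001-61235000 with 10 interactions each. No bin inside NFIB, NFIC or NFIX reached 10.

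The partners of the NFIA hub bin lay on both sides of it, 13 at lower and 17 at higher coordinates, and 15 of the 30 lay within NFIA and its flanks. Their distances ran from 50 to 2785 kb with a median of 285 kb, and 6 exceeded 1 Mb. The largest contact count of NFIA, 57 (43.2 to 73.9), joined the hub to chr1:61170001-61175000, 80 kb away in the same intron, and was 2.11 times the median at that distance. It ranked 39 of 874 interactions at 80 kb. The merged group of neighboring bin pairs around it summed to 183 read pairs, the largest sum of any NFI interaction. The hub was joined with a contact count of 56 (42.3 to 72.7) to chr1:61200001-61205000, a bin with an alternative NFIA start and 3 HLF motifs, which was 2.07 times the median at 50 kb. Downstream, its counts were 44 (32.0 to 59.1) with chr1:61360001-61365000, 40 (28.6 to 54.5) with chr1:61430001-61435000 and 39 (27.7 to 53.3) with chr1:61450001-61455000, toward the 3′ end of the gene. Upstream, the count with chr1:60960001-60965000, at a distance of 290 kb, was 43 (31.1 to 57.9), or 1.72 times the median. The hub thus joined bins along most of the NFIA body.

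The contact counts of the hub bin were set beside those of the rest of NFIA. Their median was 29.5 (interval, 23 to 35), against 22.5 (interval, 20 to 25) for the other 72 interactions, and the intervals overlapped. The ratio to the median at the same distance was 1.23 (interval, 1.10 to 1.46) for the hub and 0.959 (interval, 0.84 to 1.04) for the others, and these intervals did not overlap. Of the 10 NFIA interactions at 1.5 times the median or more, 7 involved the hub. The hub was chosen after its number of interactions was seen, and the interactions of a bin share that bin, so these values are a description. The count needed to enter the list also differs between bins. At 110 kb a contact count of 21 had a FitHiChIP q-value of 0.0025 with the hub and 1.33e-05 with chr1:61230001-61235000. The part of this threshold in the ratios was not tested.

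**Figure D3:**
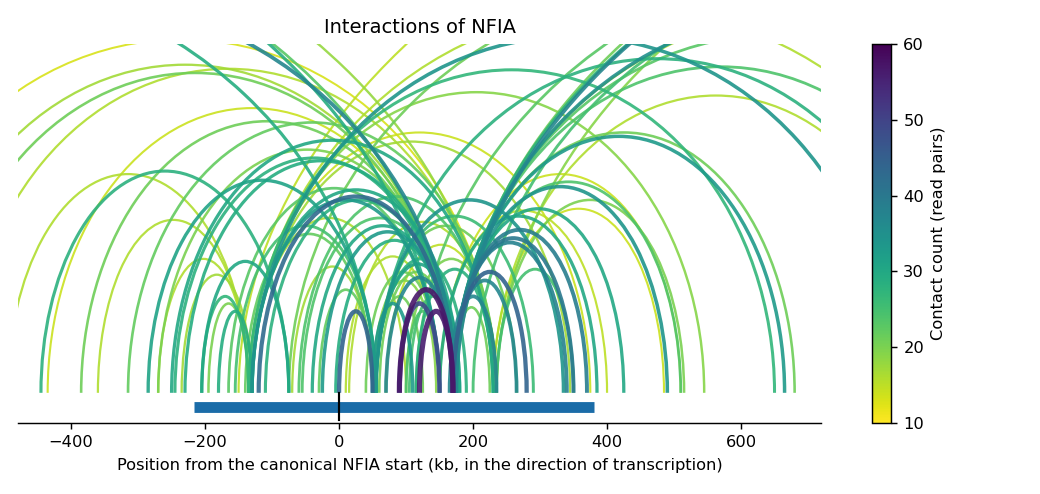
Interactions of NFIA as arcs between bin centers, placed by their distance in kb from the canonical transcript start (black tick) in the direction of transcription, with color and line width for the contact count and the gene body as a bar. Arc height is the square root of the distance. Arcs converge on the bin 170 kb downstream of the start; 75 interactions are drawn whole and 27 run past the edges.

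Bins with 6 or more interactions formed 5 regions in NFIA when adjacent ones were joined, a limit that was set after the counts were seen. Together they comprised 9 bins and took part in 96 of the 102 interactions. The region of the hub, chr1:61250001-61260000, had 39. The regions chr1:60945001-60955000, chr1:61130001-61140000 and chr1:61310001-61320000 had 16 each, and chr1:61230001-61235000 had 10. The first of these is centered at -133 kb from the canonical start, in the body of NFIA-AS2 and of the longest NFIA transcripts, and the others lie in introns 2 and 3. A single listed interaction linked a pair of these regions, chr1:60950001-60955000 with chr1:61230001-61235000, at a contact count of 33 (22.7 to 46.3). The region at chr1:61230001-61235000 and that of the hub lie closer together than the 50-kb minimum of the list, so a contact between them could not be listed.

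The smallest P value of NFIA, 1.25e-26 (q-value, 1.87e-24), belonged to a pair of bins in intron 2 without the hub, chr1:61170001-61175000 and chr1:61230001-61235000. Their contact count was 49 (36.3 to 64.8), or 1.81 times the median at 60 kb. FitHiChIP computes P from the distance and coverage of the bins, and the order by P therefore differed from the order by contact count.

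GENCODE lists 31 NFIA transcripts with 28 start positions, and 4 of the 102 NFIA interactions had a bin that held one of them. This share was not set beside that of other genes. The bin of the canonical start, chr1:61080001-61085000, holds 17 transcript starts and had 1 listed interaction, with chr1:61130001-61135000 at a contact count of 44 (32.0 to 59.1). This was 1.63 times the median at 50 kb. The adjacent bin chr1:61075001-61080000, which holds further starts, was joined to the hub with a contact count of 29 (19.4 to 41.6), and the merged group summed to 54. With starts counted within 10 kb of a bin, 17 interactions qualified. The 3 busiest NFIA bins lay in intron 2 of the canonical transcript and held no NFIA start, while the hub bin held the start of NFIA-AS1.

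The long-range partners of NFIA included starts of other genes. Of the 50 interactions with 1 bin outside the window, 2 had a partner bin that held a start of another protein-coding gene. This count has no share over the whole list beside it. The bin chr1:61255001-61260000, next to the hub, was joined over 2.265 Mb to chr1:63520001-63525000, which holds starts of EFCAB7 and ITGB3BP, the latter a gene for a centromere protein. The contact count of 37 (26.1 to 51.0) ranked 2 of 16 at that distance. The bin chr1:60950001-60955000 was joined over 955 kb to a bin that holds an alternative start of PATJ, a cell polarity gene, 165 kb downstream of its canonical start, with a contact count of 34 (23.5 to 47.5), which ranked 5 of 53. In the other direction chr1:61255001-61260000 was joined over 1195 kb to chr1:60060001-60065000, with a contact count of 37 (26.1 to 51.0) that ranked 3 of 25. The longest NFIA interaction spanned 2.89 Mb with a contact count of 15 (8.40 to 24.7). The longest from the hub bin spanned 2785 kb with a contact count of 21, the largest of the 5 at that distance.

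NFIB, on the minus strand at chr9:14081843-14398983, showed a different arrangement. The bin chr9:14415001-14420000 lies 16.0 kb upstream of the gene body, beyond the 10-kb flank, and was the partner in 9 of the 19 NFIB interactions. In the whole list it had 25 interactions and ranked 56 among anchor bins. Of the 25, 9 reached NFIB, 11 passed over NFIB to positions beyond its 3′ end and 5 lay further upstream of the gene. The 9 partners lay along the gene from chr9:14180001-14185000 to chr9:14365001-14370000. The largest contact counts were 59 (44.9 to 76.1) with chr9:14365001-14370000, 2.19 times the median at 50 kb, and 49 (36.3 to 64.8) with chr9:14325001-14330000, 1.88 times the median at 90 kb. The remaining counts lay between 18 and 36. The bin chr9:14310001-14315000, which holds the canonical NFIB start at chr9:14314141, had the count of 36 (25.2 to 49.8), or 1.44 times the median at 105 kb. The median ratio over the 9 interactions was 0.980, compared with 1.07 for the other 16 interactions of the bin.

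Inside NFIB the busiest bin was chr9:14370001-14375000, at -58.4 kb from the canonical start, with 6 interactions. It was joined to chr9:14100001-14105000 near the 3′ end of the gene with a contact count of 36 (25.2 to 49.8), 1.5 times the median at 270 kb. Another recurrent partner lay 347 kb beyond the 3′ end, at chr9:13730001-13735000, with 3 NFIB interactions among its 12. It was joined over 590 kb to chr9:14320001-14325000, a bin with 4 NFIB transcript starts and 2 HLF motifs, with a contact count of 43 (31.1 to 57.9). This ranked 3 of 101 at that distance and was 1.87 times the median. Starts were held by a bin in 3 of the 19 NFIB interactions. One NFIB interaction reached a start of another protein-coding gene, CCDC171, with a contact count of 15 (8.40 to 24.7). In the list, 16 interactions spanned the whole of NFIB without a bin in it, against 3 for NFIA, 4 for NFIC and 5 for NFIX. The 16 include the 11 interactions of chr9:14415001-14420000 that passed over NFIB. These numbers were not set against genes of like length.

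NFIX, at chr19:12995475-13098796 on the plus strand, had 14 interactions, and each of the 14 involved at least 1 of 3 bins. The bin chr19:12985001-12990000, at -7.98 kb from the canonical start, and the bin chr19:13035001-13040000 in intron 2 had 6 each. The bin chr19:13100001-13105000, just past the 3′ end, had 4 and holds the start of LYL1, a basic helix-loop-helix gene of hematopoietic stem and progenitor cells. The contact count was 37 (26.1 to 51.0) in 3 NFIX interactions. These joined the upstream bin with the intron 2 bin over 50 kb, the intron 2 bin with chr19:13085001-13090000, and the LYL1 start bin with chr19:13155001-13160000 near IER2, an immediate early gene. Their ratios to the median at the same distance were 1.37, 1.37 and 1.42. The upstream bin was joined to the LYL1 start bin with a contact count of 32 (21.9 to 45.2), 1.28 times the median at 115 kb. The gene bodies adjoin, and 6 of the 14 NFIX interactions also fell within LYL1 and its 10-kb flanks, so these cannot be assigned to one gene.

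No NFIX interaction had a bin that held an NFIX start, although in 11 of 14 a bin lay within 10 kb of one. In 4 of the 8 interactions that left the NFIX window, the partner bin held a start of another protein-coding gene. No such share over all listed interactions was set beside it, so it cannot be read as particular to NFIX. The upstream bin was joined over 2.845 Mb to a bin with an alternative start of DNMT1, the maintenance DNA methyltransferase, with a contact count of 30 (20.2 to 42.8) that ranked 2 of 11 at that distance. The intron 2 bin was joined over 1.525 Mb to a bin with an alternative start of ECSIT with a contact count of 25 (16.2 to 36.9). It was joined over 105 kb to the bin that holds the canonical start of FARSA with 19 (11.4 to 29.7), and over 1.51 Mb to a bin with an alternative start of TECR, 17.9 kb from the canonical one, with 15 (8.40 to 24.7). The ECSIT interaction ranked 4 of 16 at its distance, whereas those of FARSA and TECR lay below the median at theirs.

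**Figure D4:**
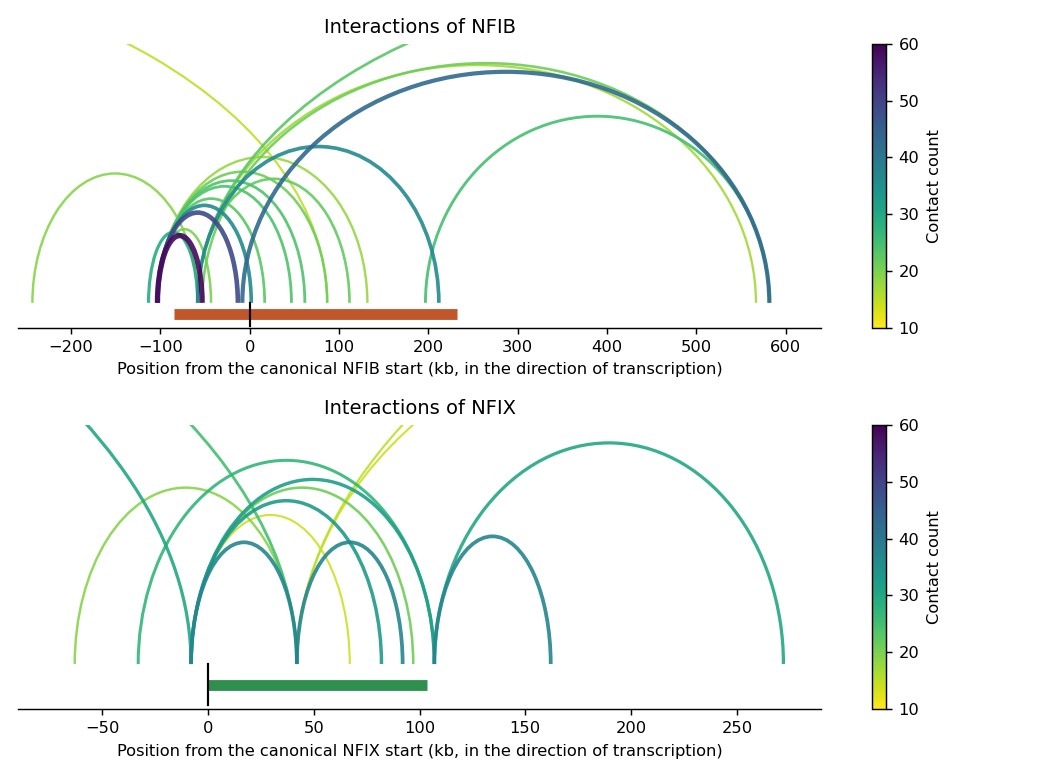
Interactions of NFIB (top) and NFIX (bottom) as arcs between bin centers, placed by distance in kb from the canonical transcript start (black tick) in the direction of transcription, with color and line width for the contact count in read pairs. Arcs of NFIB converge on the bin at -103 kb and those of NFIX on 3 bins; 2 NFIB and 4 NFIX interactions run past the edges.

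NFIC, at chr19:3314403-3469217 on the plus strand, had the fewest interactions. The bin chr19:3340001-3345000, at -24.1 kb from the canonical start, was joined over 335 kb to chr19:3005001-3010000, which holds an alternative start of TLE2, a transcriptional corepressor of the Groucho family. The contact count was 26 (17.0 to 38.1), or 1.13 times the median. The bin chr19:3390001-3395000 in intron 2 was joined over 260 kb to chr19:3130001-3135000, near GNA15, with a contact count of 17 (9.90 to 27.2), or 0.739 times the median. Both partners lay upstream, and neither bin at NFIC held or lay within 10 kb of an NFIC start.

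An HLF motif in 1 or both bins was found in 66.8% of all listed interactions. The share was 59.8% for NFIA (61 of 102; Wilson 95% interval, 50.1 to 68.8), 89.5% for NFIB (17 of 19; interval, 68.6 to 97.1) and 14.3% for NFIX (2 of 14; interval, 4.01 to 39.9). For NFIC it was 0 of 2, with an upper limit of 65.8%. The NFIB interval lay above the share of the list, the NFIX interval below it and the NFIA interval included it. The interactions of a gene share bins, and these intervals, which treat them as independent, are too narrow. In NFIA, 30 of the 61 interactions with a motif were those of the hub bin. Among the other 72 the share was 43.1%. In NFIB, 9 of the 17 had the bin upstream of the gene as partner. A further 6 had the busiest bin inside the gene, chr9:14370001-14375000. Each of these bins held 1 motif, so most of the NFIB share rests on them.

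The members differed in base composition. The median GC content of the anchor bins at NFIX was 57.1%, at NFIC 53.9%, at NFIA 40.3% and at NFIB 39.2%, compared with 41.1% over all anchor bins, and the motif is rich in A and T. The part of GC content in the motif shares was not tested. Among bins 25 kb outside each pair, 37.3% of the NFIA pairs, 57.9% of the NFIB pairs and 14.3% of the NFIX pairs had a motif, against 48.4% over the list. Within the NFIA window, 20 of the 55 anchor bins held a motif, or 36.4%, and 13 of the 69 bins without an interaction, or 18.8%. In the NFIB window the shares were 42.9% of 14 anchor bins and 42.6% of 54 bins without an interaction. The share was thus higher in anchor bins of NFIA and nearly equal in NFIB, where motifs were common throughout the gene, and these differences were not tested. At NFIX, 0 of 7 anchor bins and 1 of 18 other bins held one.

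**Figure D5:**
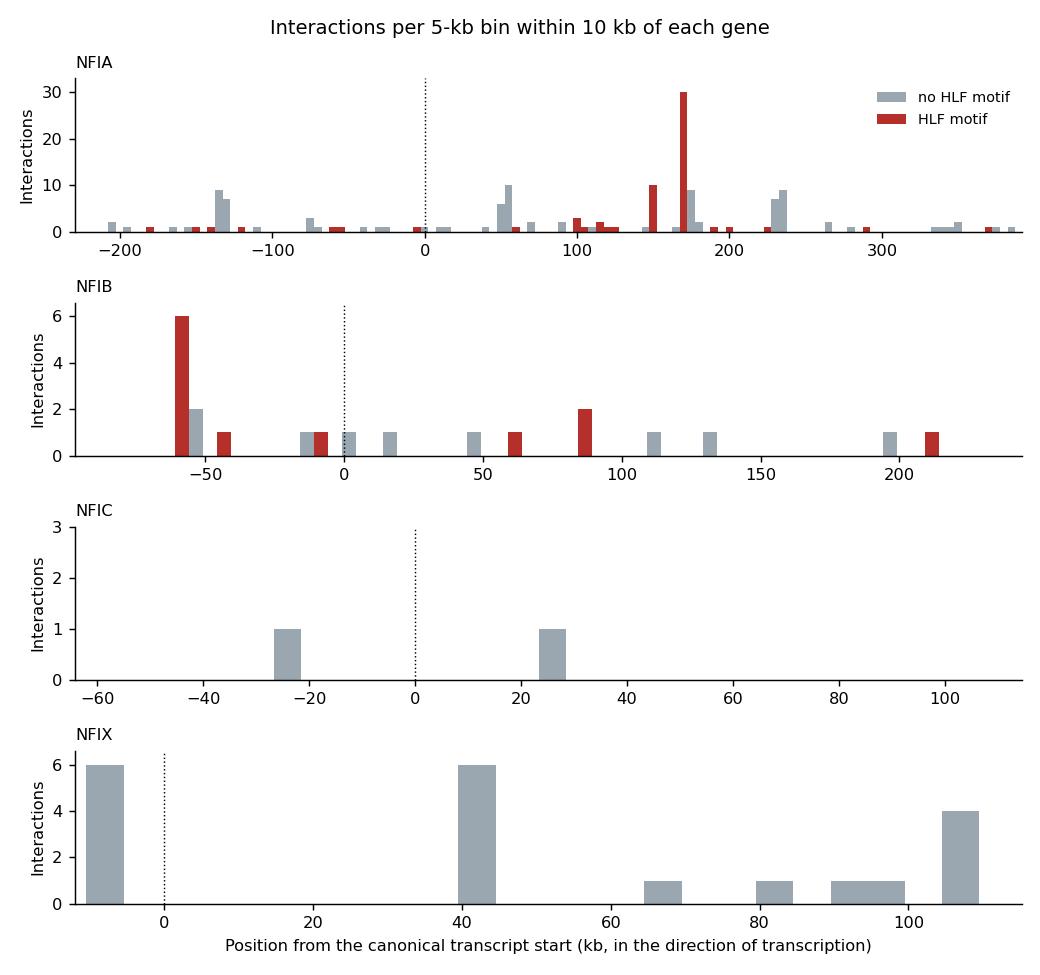
Number of listed interactions (vertical axis) of each 5-kb anchor bin within 10 kb of NFIA, NFIB, NFIC and NFIX, by distance in kb from the canonical transcript start (dotted line), with bins that hold an HLF motif in red. The hub of NFIA with 30 interactions and the busiest bin of NFIB with 6 held a motif, and no anchor bin of NFIC or NFIX did.

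The motifs in the members' bins were nearly all TTATGTAA. The 101 bins of NFIA interactions held 38 sites of this form and 3 of TTACGTAA, and the 21 bins of NFIB interactions held 11 and 2. Many busy bins had no exact motif. Of the 5 busy regions of NFIA, those at chr1:60945001-60955000, chr1:61130001-61140000 and chr1:61310001-61320000, with 16 interactions each, held 0 motifs. The 19 RefSeq promoters of the NFI genes (250 bases before to 50 after a start) contained 0 HLF motifs, and 1.01% of all 35116 promoters held one. The full NFI palindrome, TTGGC and GCCAA with 5 bases between, occurred in 2 of the 101 bins of NFIA interactions, in none of the other members' bins and in 0.331% of all anchor bins. A match to letters does not show binding.

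Of 10 genes tied to NFI factors or neighboring them, mostly regulators of blood cells, 4 had a listed interaction within the gene or 10 kb around it, beside 64.5% of all protein-coding genes. The 10 genes are 2.60 to 82.8 kb long, and the share over all genes is not matched to their length. It also does not cover MIR223HG, which is an lncRNA gene. LYL1 had 6, all shared with the adjoining NFIX and already counted among the NFIX interactions. MIR223HG, the host gene of a granulocytic microRNA, had 4 with a median contact count of 21.5. CSF3R, which encodes the G-CSF receptor, had 2, the larger with a contact count of 27 (17.8 to 39.3), and SOX9 had 1 with 13 (6.92 to 22.2). CEBPA, SPI1, SKI, TLX1, HBB and GFI1 had none, which does not show an absence of contacts, since the list holds only pairs past its threshold and at least 50 kb apart.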

How the data were processed

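HiChIP with an antibody against TCF3 was performed in 2 replicates of TCF3-KO HAL-01 cells. The authors trimmed reads with Trim Galore 0.6.6, merged the replicates, aligned them to hg38 with BWA-MEM, extracted pairs with pairtools without removing duplicates, used MACS2 peaks as reference and called interactions with FitHiChIP (version not given in the sources used here) between 5-kb bins 50 kb to 3 Mb apart at a q-value under 0.01, with nearby contacts merged. The deposited contact counts and their sums over merged groups are not normalized. Pairs that few reads joined, or that lie under 50 kb apart, are missing from such a list. The deposited p-values and q-values come from the FitHiChIP background model. The deposited fraction, the share of significant pairs in a merged group, was not reported.

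All bins lay within their hg38 chromosomes. Counts, distances, ratios to the median at the same distance, ranks and exact motif matches were computed with scipy 1.17.1 and pandas 2.3.3 under Python 3.11.15, sequences were read with pyfaidx 0.9.0.4 after indexing by samtools 1.23.1, and plots were drawn with matplotlib 3.10.9. The functions were tested on simulated data. No test was run, since the merged list holds 1 condition without replicate values. Intervals were exact Poisson (contact counts), Wilson (shares) and binomial order-statistic (medians). Members and lists were chosen with earlier results of these data known. Named for each gene were interactions with the 5 largest contact counts, smallest P or longest distance, those near a start of the gene, its 3 busiest bins, genes in partner bins, neighbors in the length-class rank and a list of 10 related genes, of which those that carry the comparisons are given. Alternatives were stricter q-values, a minimum contact count of 20, distances up to 1 Mb, other flanks, merged ranges and sums, other reference sets for ratios and ranks, and other motif sets. Positions are 1-based.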

Additional observations from a re-analysis of the deposited data

How the results depend on the processing

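Leaving out each replicate could not be computed, and no paired analysis was possible because the replicates were merged into 1 list. Of 160 values recomputed under 14 alternatives, 138 stayed within 1.5 times the reported count or rank, or within the 95% interval of the reported median or share, and 22 moved; 0 changed direction, as none is a signed difference. A q-value under 1e-05 left 91 interactions of the 4 genes in place of 137, with 11 for NFIB and 1 for NFIC, raised the median contact count to 29 and took the motif share of NFIX to 0%. A contact count of at least 20 left 1 NFIC interaction, and gave motif shares of 69.3% for NFIA and 0% for NFIX. Neither for this cut nor for the q-value under 1e-05 was the whole list recomputed. The values under these cuts therefore have no share of the list beside them. Flanks of 25 kb took in the bin upstream of NFIB, which raised NFIB to 35 interactions and its busiest bin to 25. The gene body without flanks left 9 NFIX interactions. Distances up to 1 Mb raised the share with both bins in the window from 43.8% to 52.2%. Adding TTGCGTAA and TTGTGTAA raised the motif share to 73.7% for the family and 78.4% for NFIA, against 79.6% of the list. TTACGTAA alone gave 3.65% for the family, 2.94% for NFIA, 10.5% for NFIB and 0% for NFIX, against 8.34% of the list. Among genes of 0.67 to 1.5 times the length, more genes entered each class, and the ranks were 4 for NFIA, 194 for NFIB, 302 for NFIX and 1470 for NFIC. The contact counts, at most 59, limit the precision of single interactions.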
